A study of Mus musculus with 18 samples.

Results

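The 9 genes described here belong to the complement system and were followed at RNA level in murine RPTEC, a primary culture of kidney tubule epithelium. They were 4 components of the classical pathway and of the central step (C1ra, C2, C4b and C3), the alternative pathway component Cfb, and 4 regulators (Cfi, Serping1, Cd55 and Cd59a). All were taken by their current mouse symbols from the 36528 genes of the count files, and each of the 9 was found. Of the 9, 5 (C3, Cfb, Cfi, Cd55 and Cd59a) passed the read filter (over 10 reads in 4 or more samples) that kept 15521 of the 36528 genes, and the 4 others (C1ra, C2, C4b and Serping1) did not. The cells came from C57BL/6 mice through a commercial supplier and formed 6 groups of 3 samples: vehicle (DMSO), recombinant mouse TWEAK at 100 ng/mL, or TWEAK at 100 ng/mL together with 3 μM NIK SMI1, each collected at 6 h and at 24 h. TWEAK is a cytokine of the TNF family that activates non-canonical NF-κB signaling through NF-κB inducing kinase (NIK), and NIK SMI1 is a small molecule inhibitor of NIK. No group received NIK SMI1 without TWEAK, so that an effect of the inhibitor of its own cannot be told apart from its effect on the TWEAK response. The labels name no separate animals or preparations, so that p-values measure the spread between cultured samples, which may be technical.

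The complement system is a cascade of plasma and tissue proteins that tags particles and damaged cells for removal and can pierce membranes. The classical pathway runs from C1 (which contains C1r and C1s) through C4 and C2, the alternative pathway uses factor B, and both cleave C3, the component on which all pathways meet. The cascade is held in check by soluble regulators such as factor I and the C1 inhibitor and by membrane proteins such as CD55 and CD59. The liver makes most of the complement in plasma, and tubular epithelial cells of the kidney are a known local source of C3.

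The samples held 18040966 to 51956444 reads within genes (median 35374254), and 3 reads, the smallest count read as a level, correspond to 0.0577 to 0.166 CPM (counts scaled to a common library total). Such limits cover counting error only. All 5 epithelial marker genes (Epcam, Cdh1, Krt8, Krt18, Krt19) were above 1 CPM, with a summed level of 7937 to 10575 CPM. Of 8 proximal tubule markers, 3 had a median of at least 1 CPM and 5 were below it, among them Lrp2 and Slc34a1, so the markers fit the label for epithelium and only in part for the proximal tubule. Hepatocyte markers summed to 0 to 0.977 CPM over the 18 samples, with Apoa1 and Fga at 0 in every one. Of 8 markers of pancreatic islets, which are not part of the kidney, 3 had a median of at least 1 CPM (Ins2, Iapp and Chga). The 5 others were below it, with Ppy and Pyy at 0 in every sample. The 8 markers set some samples apart: they summed to 14.3 to 29.0 CPM in every vehicle sample and every sample of 6 h. At 24 h this sum was 13.2, 0.214 and 4.18 CPM in the TWEAK samples 1, 2 and 3, and 0.0451 to 0.0870 CPM in the 3 samples with TWEAK and NIK SMI1. In comparisons of the last group with vehicle at 24 h, the treatment and the islet signal therefore cannot be told apart. Changes called at 24 h for TWEAK against vehicle, or for the inhibitor against TWEAK, were also refitted with 1 TWEAK sample kept.

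C3 was the member that passed in the most comparisons, and the 250 bases of its promoter upstream of the gene start are shown here because they are the stretch in which short recognition motifs of the inducible factors of this field were looked for. The sequence is from RefSeq (GRCm38.p6, chr17:57228137-57228386, minus strand, written 5′ to 3′ along the gene), and the capitals mark the single motif match in it.
C3 promoter: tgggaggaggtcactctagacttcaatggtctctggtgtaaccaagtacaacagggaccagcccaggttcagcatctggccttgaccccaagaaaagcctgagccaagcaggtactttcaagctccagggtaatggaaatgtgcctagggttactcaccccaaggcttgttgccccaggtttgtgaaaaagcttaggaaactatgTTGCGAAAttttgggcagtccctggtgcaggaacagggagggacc
The match is an 8-base C/EBP-type motif (TTGCNNAA, searched on both strands) at positions -45 to -38, counted back from the start, and 9.55% of 27025 RefSeq promoter windows of the same 250 bases hold this motif. The κB consensus (present in 4.78% of the windows), the GAS motif TTCNNNGAA (7.18%) and the IRF-type motif GAAANNGAAA (3.04%) were not matched in the C3 window. Windows were at hand for 3 more members: Cd59a held 1 IRF-type match at positions -187 to -178 from its start, and Cd55 and C1ra held no match to any of the 4 motifs. Only full matches within the 250 bases were counted, with no mismatched letter allowed. A match, or the lack of one, is a description of letters and says nothing of binding.

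On a scale that corrects for gene length, the authors' RPKM values, the 9 genes covered a wide range. In vehicle at 6 h, Cd59a, which blocks the final membrane pore, was highest at 8.60 ± 0.18 RPKM (mean ± SD, n = 3), followed by C3 at 5.78 ± 0.33 RPKM and Cd55, which takes apart the enzymes that cleave C3, at 2.69 ± 0.30 RPKM. Cfb was at 1.41 ± 0.14 RPKM, Cfi at 0.158 ± 0.037 RPKM, and the remaining 4 genes did not exceed 0.0241 RPKM on average. The samples of neighbors in this order did not overlap down to C2, whereas those of C2, C4b, Serping1 and C1ra overlapped with the next. Among the 5 genes that passed the read filter, C3 was the one that moved in the order; the 4 others changed ranks among themselves at reads too few to order them. With TWEAK at 6 h it was the highest of all members at 11.4 ± 0.53 RPKM, above Cd59a at 9.20 ± 0.60 RPKM with no overlap between their samples. At 24 h C3 was at rank 3 in vehicle at 1.67 ± 0.18 RPKM, rank 2 with TWEAK at 3.70 ± 0.30 RPKM, and rank 4 with TWEAK and NIK SMI1 at 1.13 ± 0.14 RPKM, where it was below Cfb at 1.48 ± 0.12 RPKM.

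**Figure D1:**
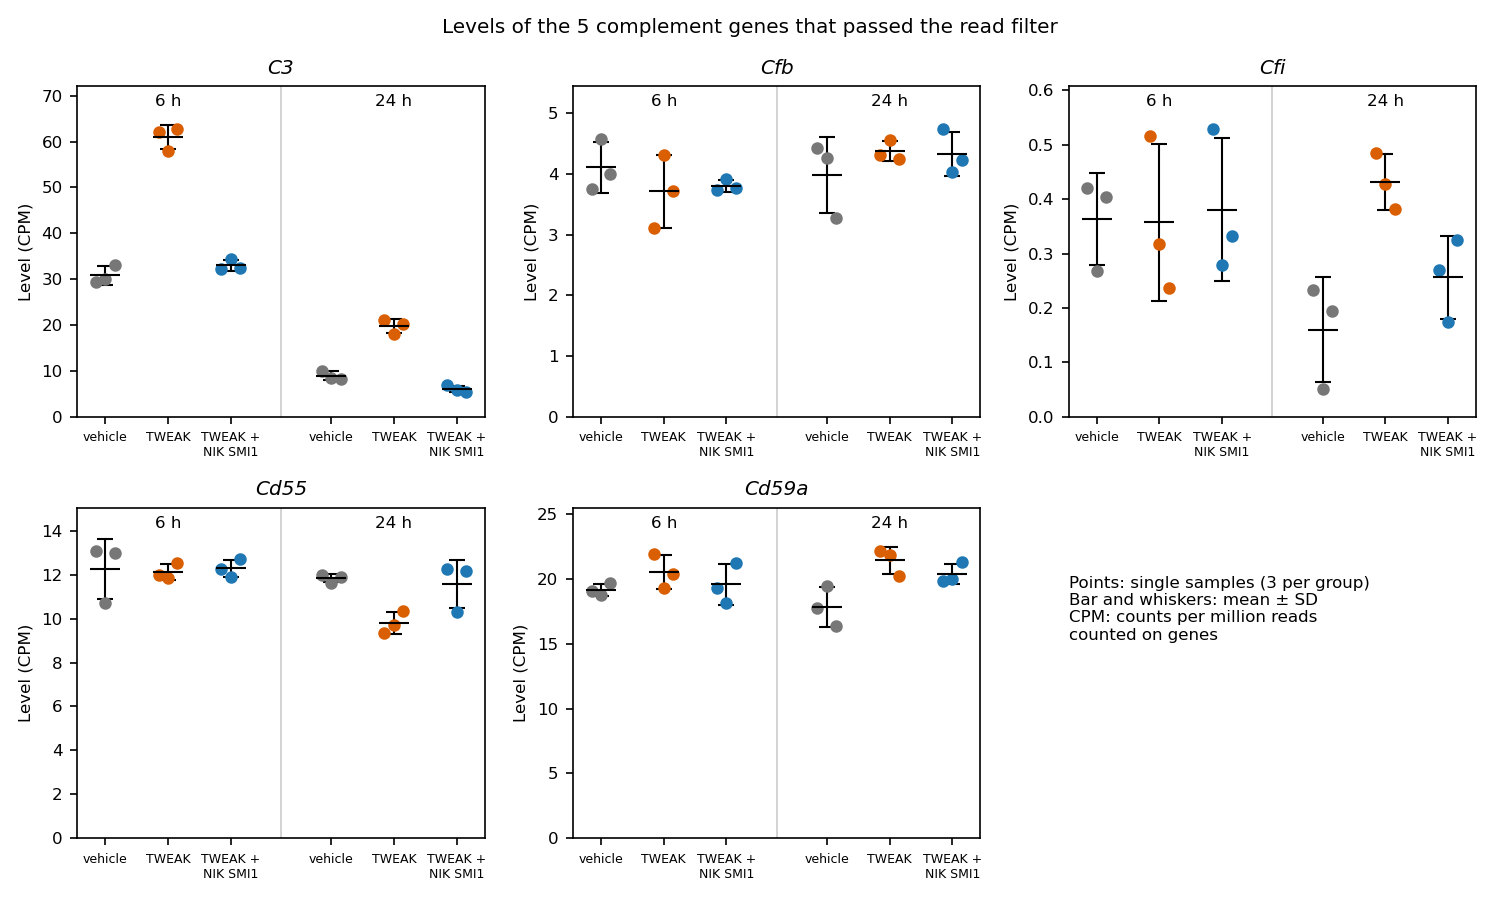
Level in CPM (linear axis from 0, own scale in each panel) of the 5 members that passed the read filter, in 3 samples of each of 6 groups at 6 h and 24 h; points are samples, bars and whiskers mean ± SD. C3 with TWEAK lies above both other groups at each time (57.99 to 62.7 CPM at 6 h, 18.1 to 21.0 CPM at 24 h), Cfb lies between 3.10 and 4.74 CPM throughout, and Cd55 is lower and Cd59a higher than vehicle with TWEAK at 24 h.

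At 6 h, TWEAK raised 1 of the 5 tested members, C3, and lowered none, where 11.7% of all tested genes rose and 12.0% fell (edgeR quasi-likelihood test, adjusted p below 0.05). At 24 h it raised 3 (C3, Cfi and Cd59a) and lowered 1 (Cd55), with 18.3% of all tested genes raised and 20.7% lowered. NIK SMI1 added to TWEAK lowered C3 and no other member at either time. At 6 h 5.70% of all tested genes were lower and 5.34% higher with the inhibitor than with TWEAK alone, and at 24 h 8.29% were lower and 10.2% higher. The median log2 fold change of the 5 members under TWEAK came to -0.01 (6 h) and 0.26 (24 h), against 0.00 and -0.01 over all tested genes. TMM factors lay between 0.964 and 1.03. Under the other scalings the largest absolute median log2 change of all tested genes was 0.0706. It arose for vehicle at 24 h against 6 h with library totals.

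C3 encodes the component that all complement pathways cleave. At 6 h its level was 29.3, 30.1 and 33.1 CPM in the vehicle samples (30.8 ± 2.04, mean ± SD, n = 3), 62.2, 57.99 and 62.7 CPM with TWEAK (61.0 ± 2.59), and 32.2, 34.5 and 32.5 CPM with TWEAK and NIK SMI1 (33.1 ± 1.23). Every TWEAK sample was thus above every vehicle sample, and the samples with the inhibitor overlapped with vehicle. TWEAK raised C3 1.99-fold (log2 fold change 0.99, SE 0.06, adjusted p = 1.29e-12), and NIK SMI1 lowered it 1.85-fold from the TWEAK level (log2 fold change -0.89, SE 0.07, adjusted p = 1.65e-10). What remained with the inhibitor against vehicle was a log2 difference of 0.10 in C3, with a 95% confidence interval from -0.04 to 0.24 (adjusted p = 0.365). In this last comparison 0 of the 5 members passed in edgeR and 0 had an unadjusted p under 0.05. DESeq2 gave Cfi no adjusted p, and 0 of the other members passed in it. Over all tested genes, 7.24% were higher and 6.70% lower in edgeR. Measured on linear CPM, NIK SMI1 removed 92.6 ± 4.07% of the TWEAK-induced rise in C3 (SD over the 3 inhibitor samples against the mean levels of the other groups).

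At 24 h C3 was lower in all groups than at 6 h, and the order of the treatments differed in 1 place. The vehicle samples held 10.1, 8.52 and 8.30 CPM (8.96 ± 0.96), the TWEAK samples 21.0, 18.1 and 20.3 CPM (19.8 ± 1.53), and the samples with TWEAK and NIK SMI1 6.88, 5.94 and 5.39 CPM (6.07 ± 0.75). No 2 of the 3 groups overlapped, and the inhibitor samples were below vehicle. TWEAK raised C3 2.15-fold (log2 fold change 1.10, SE 0.09, adjusted p = 2.86e-11), and NIK SMI1 lowered it 3.21-fold from the TWEAK level (log2 fold change -1.68, SE 0.09, adjusted p = 3.60e-14). Against vehicle, C3 with TWEAK and NIK SMI1 was 1.496-fold lower (log2 fold change -0.58, SE 0.10, adjusted p = 7.23e-05). C3 was the only member that passed in this comparison, where 8.07% of all tested genes were higher and 9.83% lower. On linear CPM the inhibitor removed 127 ± 6.93% of the rise, that is, more than the rise itself.

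The TWEAK effects on C3 at 6 h and 24 h were compared directly. The difference of the 2 log2 fold changes (24 h minus 6 h) was 0.11 (adjusted p = 0.632 in edgeR). Its 95% confidence interval ran from -0.11 to 0.33, and differences within it remain possible. No member passed for this difference in edgeR or in DESeq2, 2 of 5 had an unadjusted p under 0.05, and 8.91% of all tested genes passed in either direction. The effect of NIK SMI1 on C3 was larger at 24 h, by -0.80 on the log2 scale (SE 0.11, adjusted p = 7.59e-05 in edgeR). In that comparison 4.73% of all tested genes passed in either direction, and C3 was the only member to do so. The islet signal differed between the TWEAK and inhibitor samples at 24 h, and this comparison was not refitted with 1 TWEAK sample kept.

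Other measures also differed between the groups of 24 h. The islet marker sum differed as given above: kept alone among the TWEAK samples, sample 2, whose islet sum of 0.214 CPM was nearest to the inhibitor samples, gave a log2 fold change of -1.56 for C3 with NIK SMI1 (adjusted p = 3.14e-10), and sample 1, nearest to vehicle, gave 1.20 for C3 with TWEAK (adjusted p = 1.87e-08), on the assumption that the lone sample varies like the other groups. For C3 below vehicle at 24 h no such choice of samples exists, and the islet signal and the treatment cannot be told apart there. Of 8 leukocyte markers, 6 had a median below 1 CPM, among them Ptprc, with Cd3e at 0 throughout. Their sum was 24.3 to 26.0 CPM with TWEAK at 24 h against 21.3 to 22.4 CPM in vehicle and 19.8 to 21.1 CPM with the inhibitor. Most of that difference lay in Csf1r, at 11.2 to 12.5 CPM with TWEAK, 7.61 to 8.64 CPM in vehicle and 7.90 to 9.08 CPM with the inhibitor. Its part in the C3 result was not tested. In a bulk sample, fewer cells that express a gene and less RNA per cell cannot be told apart.

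**Figure D2:**
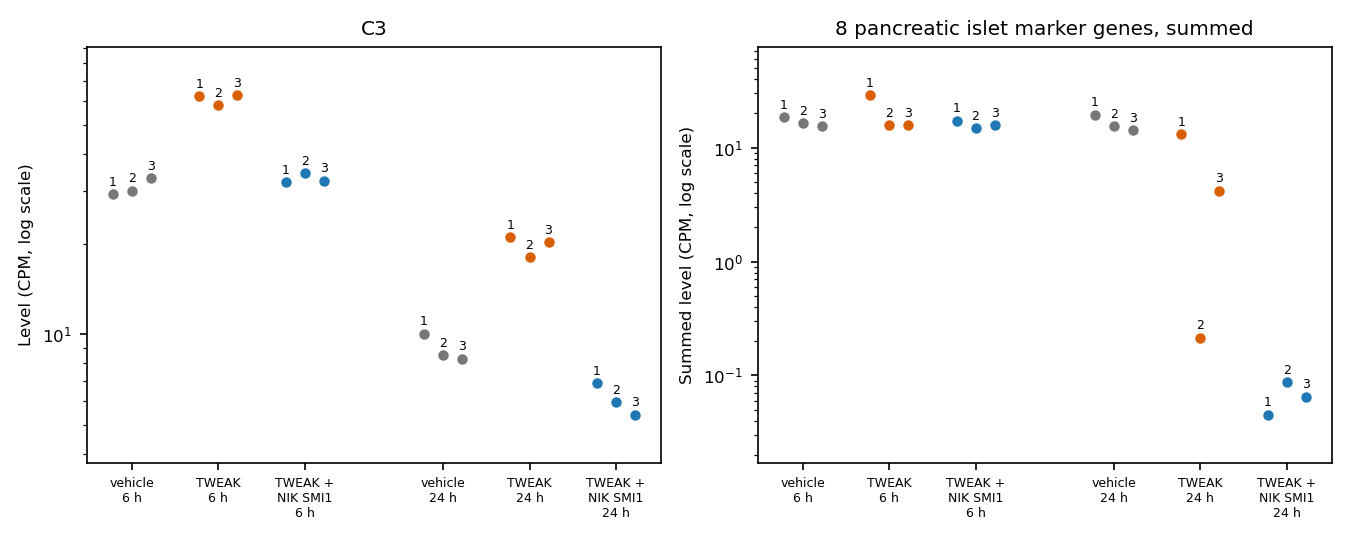
Level of C3 (left) and summed level of 8 pancreatic islet marker genes (right) in CPM on log axes, for each of 3 numbered samples in 6 groups. C3 is lowest with TWEAK and NIK SMI1 at 24 h (5.39 to 6.88 CPM), where the islet sum is 0.0451 to 0.0870 CPM, and the TWEAK samples at 24 h span 0.214 to 13.2 CPM of islet sum at 18.1 to 21.0 CPM of C3.

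A further entry of the files, GeneID:102642251, which has no symbol in the RefSeq table, held between 92.8 and 97.0% as many reads as C3 in each of the 18 samples (r = 0.99994 of log2 CPM). It was not taken as an independent measurement, since the files do not tell whether the same reads were counted under both.

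In vehicle, C3 was 3.53-fold lower at 24 h than at 6 h (log2 fold change -1.82, SE 0.08, adjusted p = 1.22e-15). C3 was the only one of the 5 tested members that passed, in a comparison in which 15.5% of all tested genes were higher and 14.4% lower at 24 h. With library totals in place of TMM the split over all genes was 3710 higher and 1260 lower in place of 2407 and 2233. The log2 differences of the other members between the vehicle groups were -1.08 for Cfi (adjusted p = 0.0814), -0.17 for Cd59a (adjusted p = 0.0659), -0.11 for Cd55 (adjusted p = 0.338) and -0.09 for Cfb (adjusted p = 0.676). Without vehicle sample 2 of 24 h, Cd59a passed at -0.22 (adjusted p = 0.0269).

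Cfb encodes factor B, which supplies the catalytic subunit of the alternative pathway C3 convertase. At 24 h its level was 4.42, 4.26 and 3.27 CPM in vehicle, 4.32, 4.56 and 4.25 CPM with TWEAK, and 4.74, 4.03 and 4.22 CPM with TWEAK and NIK SMI1. Those groups overlapped, as did the 3 groups of 6 h, which ranged from 3.10 to 4.57 CPM. The log2 fold change of Cfb with TWEAK was -0.12 at 6 h (95% confidence interval -0.38 to 0.14, adjusted p = 0.567) and 0.12 at 24 h (-0.16 to 0.39, adjusted p = 0.538). With NIK SMI1 against TWEAK it was 0.01 at 6 h (-0.27 to 0.29) and -0.02 at 24 h (-0.28 to 0.24). No change of Cfb was detected, and at 67 to 217 reads per sample changes within these intervals remain possible. C2, whose gene is the neighbor of Cfb on chromosome 17 and whose protein plays the matching part in the classical pathway, had 0 to 5 reads.

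The classical pathway members were at the limit of detection in all groups. C2 had 2, 2 and 5 reads in the vehicle samples at 6 h and 5, 4 and 1 with TWEAK, and 0 to 2 reads in all 9 samples of 24 h. C4b, a thioester protein related to C3, had 0 to 9 reads over the 18 samples, with 3, 3 and 2 in vehicle at 24 h and 4, 5 and 3 with TWEAK. C1ra, which encodes a protease of the C1 complex, had 0 reads in all 6 samples of vehicle and TWEAK at 6 h and up to 5 elsewhere. None of these genes was tested, their level was at most 0.176 CPM in any sample, and no fold is given. Reads of close copies also limit what these counts hold: of the 50-base stretches of the longest reference transcript, 35.2% in C4b were shared with C4a and 48% in C1ra with C1rb, and reads that align to more than 1 place were not counted. C4a itself had 3 to 24 reads per sample and C1rb 0 to 2. C4a passed the filter and showed log2 fold changes with TWEAK of 0.05 at 6 h (adjusted p = 0.962) and 0.08 at 24 h (adjusted p = 0.891).

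Among the soluble regulators, Serping1, the C1 inhibitor, had 0 to 2 reads, and 0 in all 9 samples of 24 h. Cfi, the protease factor I that inactivates cleaved C3 and C4, was low as well. Its reads in vehicle at 24 h were 10, 1 and 4 (0.234, 0.0507 and 0.195 CPM), with TWEAK 11, 20 and 16 (0.485, 0.428 and 0.382 CPM), and with TWEAK and NIK SMI1 12, 6 and 10 (0.271, 0.174 and 0.325 CPM). The 3 TWEAK samples were above those of both other groups, which overlapped. Cfi rose 2.35-fold with TWEAK at 24 h (log2 fold change 1.23, SE 0.46, adjusted p = 0.0342). The call was lost in DESeq2 (adjusted p = 0.0563), without the read filter (0.0613), without vehicle sample 2 (log2 fold change 0.93, adjusted p = 0.127) or 3 (1.28, 0.0583), without TWEAK sample 1 (1.17, 0.0676) or 2 (1.23, 0.0722), and with TWEAK sample 1 alone (1.43, 0.142). With NIK SMI1 at 24 h the log2 difference of Cfi from TWEAK was -0.73 (SE 0.40, adjusted p = 0.236). At 6 h the 3 groups overlapped between 0.238 and 0.529 CPM, and the log2 fold change with TWEAK was -0.04 (SE 0.37, adjusted p = 0.963).

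Among the membrane regulators, Cd55 encodes decay-accelerating factor, which dissociates the convertases on the cell surface. At 24 h Cd55 was at 12.0, 11.6 and 11.9 CPM in vehicle, 9.34, 9.72 and 10.3 CPM with TWEAK, and 12.3, 10.3 and 12.2 CPM with TWEAK and NIK SMI1. The TWEAK samples were below all vehicle samples, and inhibitor sample 2 overlapped with the TWEAK range. Cd55 fell 1.21-fold with TWEAK (log2 fold change -0.27, SE 0.09, adjusted p = 0.0135). This call was lost without vehicle sample 1 of 24 h (-0.26, adjusted p = 0.0567), without TWEAK sample 2 (-0.26, adjusted p = 0.05002), and with TWEAK sample 1 alone (-0.34, adjusted p = 0.0735). The log2 difference of Cd55 with NIK SMI1 from TWEAK was 0.23 (SE 0.08, adjusted p = 0.0522) and passed without inhibitor sample 2 (0.30, adjusted p = 0.0170), without vehicle sample 1 of 6 h (0.23, adjusted p = 0.0430) or 2 of 6 h (0.23, adjusted p = 0.0290), with library totals (adjusted p = 0.0474) and with 24 h fitted alone (adjusted p = 0.0476). With TWEAK sample 2 of 24 h alone, the log2 difference of Cd55 with NIK SMI1 from TWEAK was 0.26. At 6 h Cd55 lay between 10.7 and 13.1 CPM in all 3 groups, which overlapped, with a log2 fold change of -0.01 with TWEAK (95% confidence interval -0.17 to 0.16). The difference between the 2 times was -0.26 (adjusted p = 0.182). The copy Cd55b, which shares 10.7% of the 50-base stretches of Cd55, had 0 or 1 read per sample.

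Cd59a encodes the protein that stops the membrane attack complex from closing. At 24 h its level was 17.7, 19.4 and 16.4 CPM in vehicle, 22.2, 21.8 and 20.2 CPM with TWEAK, and 19.9, 19.98 and 21.3 CPM with TWEAK and NIK SMI1. All TWEAK and all inhibitor samples were above all vehicle samples, and the 2 treated groups overlapped. Cd59a rose 1.20-fold with TWEAK (log2 fold change 0.26, SE 0.07, adjusted p = 0.00365), and passed without each of the 18 samples in turn (adjusted p 0.00154 to 0.0306). With TWEAK sample 1 of 24 h alone its log2 fold change with TWEAK was 0.32. NIK SMI1 did not move Cd59a detectably from the TWEAK level (log2 difference -0.07, 95% confidence interval -0.21 to 0.06, adjusted p = 0.519). With the inhibitor Cd59a was 0.19 above vehicle on the log2 scale (SE 0.07, adjusted p = 0.0649), which passed without vehicle sample 2 (0.24, adjusted p = 0.0276). At 6 h the log2 fold change with TWEAK was 0.11 (95% confidence interval -0.03 to 0.24, adjusted p = 0.267), and the difference between the times was 0.15 (adjusted p = 0.394). The copy Cd59b, sharing 3.98% of the 50-base stretches, had 0 to 5 reads.

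**Figure D3:**
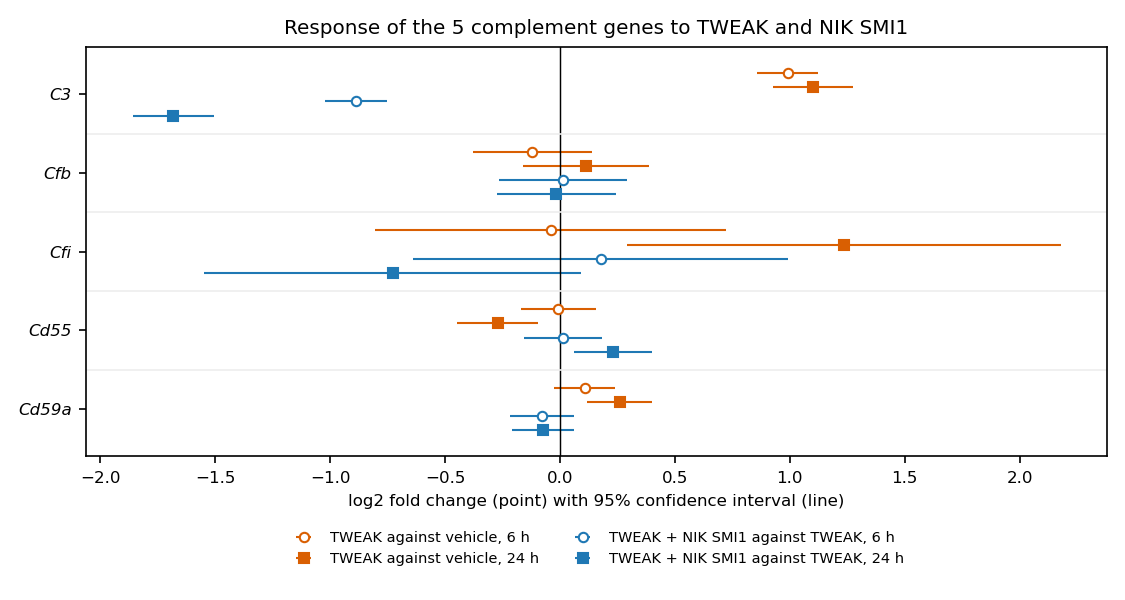
log2 fold changes (x axis, points) with 95% confidence intervals (lines) of the 5 tested members for TWEAK against vehicle (orange) and TWEAK with NIK SMI1 against TWEAK (blue), at 6 h (open circles) and 24 h (filled squares), from the edgeR fit of all 18 samples. C3 moves up with TWEAK and down with NIK SMI1 at both times, the changes of Cd55 and Cd59a are small (-0.27 and 0.26 with TWEAK at 24 h), and the interval of Cfi is wide (0.29 to 2.18 with TWEAK at 24 h).

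The same counts were read for 46 further complement genes, of which 14 passed the filter. TWEAK raised 0 and lowered 1 of these 14 at 6 h (11.7% and 12.0% of all tested genes), and raised 1 and lowered 6 at 24 h (18.3% and 20.7%). NIK SMI1 raised 1 and lowered 0 at 6 h (5.34% and 5.70%) and raised 2 and lowered 0 at 24 h (10.2% and 8.29%). The median log2 fold change of the 14 with TWEAK at 24 h was -0.52, against -0.01 over all tested genes. The list is of complement genes in general and includes receptors and regulators next to components, so its counts are not a direction of complement activity.

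Of the membrane regulators in that list, Susd4, a complement inhibitor, changed at both times. Its level at 24 h was 85.1, 85.9 and 88.6 CPM in vehicle, 55.2, 55.8 and 56.7 CPM with TWEAK, and 79.1, 71.9 and 70.8 CPM with TWEAK and NIK SMI1. No groups overlapped. Susd4 fell with TWEAK (log2 fold change -0.63, SE 0.04, adjusted p = 4.08e-12) and was higher with NIK SMI1 than with TWEAK alone (0.40, SE 0.04, adjusted p = 7.63e-08). With 1 TWEAK sample of 24 h kept, the first change was -0.64 (sample 1) and the second 0.41 (sample 2). At 6 h the same 2 changes were -0.21 (SE 0.04, adjusted p = 0.000488) and 0.14 (SE 0.04, adjusted p = 0.0414), and the second was lost without any 1 of the TWEAK samples 1, 2 and 3 of 6 h (adjusted p = 0.202, 0.0780 and 0.0511) or inhibitor samples 1 and 2 of 6 h (0.220 and 0.0785), without the read filter (0.0699) and with 6 h fitted alone (0.0931).

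The soluble regulators clusterin (Clu) and carboxypeptidase N (Cpn1), which inactivates the anaphylatoxins, also fell with TWEAK at 24 h. Clu, at 3271 ± 128 CPM in vehicle, was at 2260 ± 31.1 CPM with TWEAK and 2333 ± 224 CPM with TWEAK and NIK SMI1 (log2 fold change with TWEAK -0.53, adjusted p = 1.27e-10, and with the inhibitor 0.04, adjusted p = 0.610). With TWEAK sample 1 of 24 h alone, the log2 fold change of Clu with TWEAK was -0.55. Cpn1 fell by 1.96 on the log2 scale (adjusted p = 3.24e-05; with TWEAK sample 1 alone by 1.13, adjusted p = 0.0671).

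Among receptors, Itgb2, the β chain of the integrins that bind cleaved C3, fell with TWEAK at 24 h (log2 fold change -0.51, SE 0.11, adjusted p = 0.000291). With TWEAK sample 1 alone the log2 fold change of Itgb2 was -0.70. The anaphylatoxin receptor C3ar1 fell too (-0.95, SE 0.33, adjusted p = 0.0220), which was lost without TWEAK sample 1 (-0.80, adjusted p = 0.0689), vehicle sample 1 (-0.80, adjusted p = 0.136) or vehicle sample 3 (-0.92, adjusted p = 0.0508), without the read filter (adjusted p = 0.0520) and with TWEAK sample 1 alone (adjusted p = 0.0522). Cd93, at 3 to 6 reads with TWEAK and 5 to 14 in vehicle, fell by 1.38 (adjusted p = 0.0231) and was 1.34 higher with NIK SMI1 than with TWEAK (adjusted p = 0.0390). The first Cd93 call was lost without TWEAK sample 3 (-1.12, adjusted p = 0.101) or vehicle sample 1 (-1.18, adjusted p = 0.143), in DESeq2 (adjusted p = 0.0652), without the read filter (0.0865) and with TWEAK sample 1 alone (0.355). The second was lost without TWEAK sample 1, 2 or 3 (adjusted p = 0.0548, 0.0704 and 0.165) or inhibitor sample 1 or 2 (adjusted p = 0.193 and 0.0662), without the read filter (0.131), with 24 h fitted alone (0.0703) and with TWEAK sample 2 alone (0.313), and DESeq2 gave it no adjusted p. C1qbp, a mitochondrial protein that can bind C1q, rose by 0.11 (adjusted p = 0.0381), lost without TWEAK sample 1, 2 or 3 (adjusted p = 0.106, 0.0525 and 0.0744) or vehicle sample 2 or 3 (adjusted p = 0.138 and 0.112) and with TWEAK sample 1 alone (0.132). The other 7 tested genes, C4a, C8g, Cd46, Cfp, Cr1l, Masp1 and Masp2, did not pass in any of these 4 comparisons as fitted here. Masp1, a protease of the lectin pathway, passed with TWEAK at 24 h without the read filter (-0.92, adjusted p = 0.0440), with 24 h fitted alone (-0.91, adjusted p = 0.0467) and without inhibitor sample 1 of 6 h (-0.92, adjusted p = 0.0476). Calls were also gained by Clu with TWEAK at 6 h without the read filter (-0.09, adjusted p = 0.00989) and without inhibitor sample 1 of 24 h (-0.10, adjusted p = 0.0344), and by Cd93 with TWEAK at 6 h without TWEAK sample 1 of 6 h (-0.999, adjusted p = 0.0452). With NIK SMI1, Cpn1 gained one at 6 h without the read filter (0.66, adjusted p = 0.0189) and without inhibitor sample 3 of 6 h (0.82, adjusted p = 0.0425), and Itgb2 at 24 h without TWEAK sample 2 of 24 h (0.35, adjusted p = 0.0377).

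**Figure D4:**
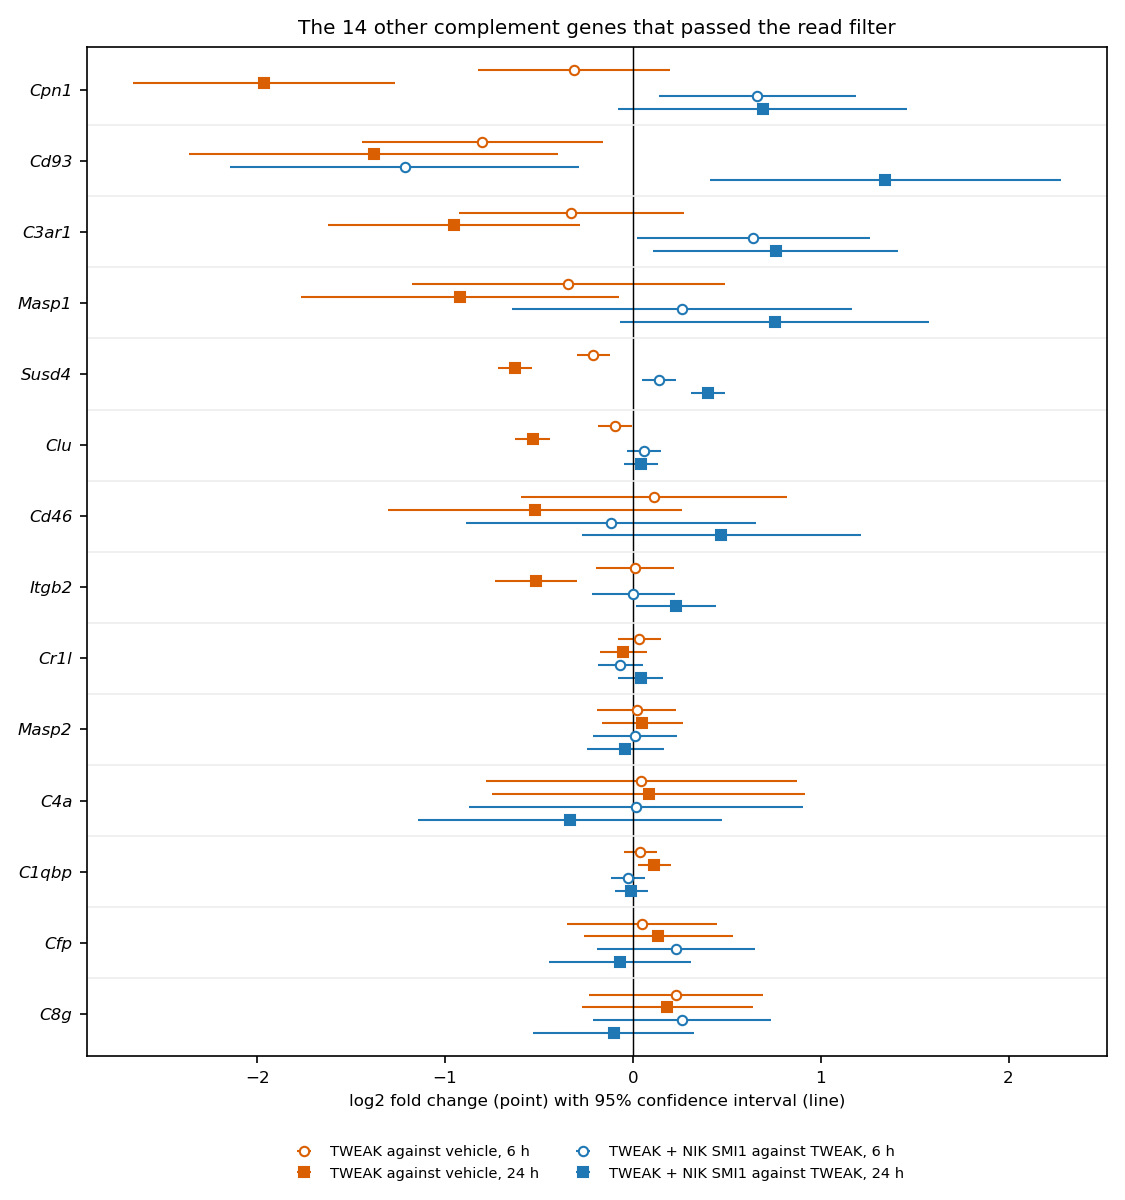
log2 fold changes (x axis, points) with 95% confidence intervals (lines) of the 14 further complement genes that passed the read filter, for TWEAK against vehicle (orange) and TWEAK with NIK SMI1 against TWEAK (blue) at 6 h (open circles) and 24 h (filled squares), ordered by the TWEAK change at 24 h. Susd4 moves down with TWEAK (-0.63 at 24 h) and up with NIK SMI1 (0.40 at 24 h), while Clu moves down with TWEAK (-0.53 at 24 h) and shows 0.04 with the inhibitor.

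Across the 18 samples no other tested member followed C3 closely. Pearson's r of log2 CPM with C3 was 0.53 for Cfi, 0.45 for Cd59a, 0.39 for Cd55 and -0.16 for Cfb, given as a description over samples that share treatment and time. The genes whose pattern was most like that of C3 over these samples, apart from the further entry named above, were Dap (r = 0.977) and Anxa6 (r = 0.973). For the other members the likeness was lower, with Gatd1 nearest to Cfb (0.786), Parp6 to Cfi (0.810), Diaph2 to Cd55 (0.887) and Fam83c to Cd59a (0.835).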

How the data were processed

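RNA of 18 samples was sequenced. Per the paper's methods, the authors ran HTSeqGenie, in which GSNAP mapped the reads to NCBI build 37 of the mouse, and kept reads with 1 alignment only. The deposited values are raw counts, the number of such reads within the exons of each Entrez gene, 1 file per sample. The authors also gave RPKM, scaled by exonic length and by a read total 2.96 to 5.30% above the sum of the counts, and the exonic width in bases. Tool versions of these steps are not given in the sources used here.

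From the counts, CPM was computed on the sum of counts. Genes with more than 10 reads in at least 4 samples (15521) were fitted in edgeR 4.0.16 under R 4.3.3 as 6 groups with TMM and quasi-likelihood tests, with Benjamini-Hochberg adjustment over all tested genes, with a threshold of 0.05. Standard errors came from the F statistic. RPKM entered no test and was used only to compare levels between genes. Symbols were matched through Entrez identifiers to RefSeq (31049 of 36528), and promoters to RefSeq on GRCm38.p6. Transcripts for shared stretches were from GENCODE M21.

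The members and lists were chosen with earlier results of these data known. Named are all 9 members, their close copies, the further complement genes that passed at 24 h in either comparison, and genes most like each member (of the 3 nearest by r, the text gives the first, and for C3 all 3). Further complement genes outside these are given as counts only, and 1 gene was left out of that list and is not reported here. C5 (Hc) was named after its values were seen. The labels give no replicate numbers, so numbers only name samples. Replicates differed by more than sampling noise (chi-square per gene 2.20 to 10.0). The script was tested on simulated data for TWEAK at 24 h, in which 200 of 200 genes changed by 1 on the log2 scale were recovered and 11 of the other genes were called. The 200 were drawn from genes above a minimum mean level, and all genes were given the same spread. Recovery of smaller changes, or of genes at lower levels, was therefore not tested. Alternatives were library totals, the size factors of DESeq2 in edgeR, DESeq2 1.42.0, no filter, filterByExpr, close copies summed, each time point alone, and each sample left out. Keeping only 1 TWEAK sample at 24 h was chosen after seeing the data.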

Additional observations from a re-analysis of the deposited data

Results flagged for a closer look

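The effect of NIK SMI1 on C3 differed between the times by -0.796 on the log2 scale (24 h minus 6 h, adjusted p = 7.59e-05 in edgeR), with a larger decrease at 24 h. Of the further complement genes, the inhibitor effect differed by 2.56 for Cd93 (adjusted p = 0.0187), whose log2 difference from TWEAK was -1.21 at 6 h and 1.34 at 24 h at 2 to 16 reads per sample, and by 0.261 for Susd4 (adjusted p = 0.0140).

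The log2 fold change with TWEAK was more negative at 24 h than at 6 h for Clu, Cpn1, Itgb2 and Susd4. In edgeR the difference (24 h minus 6 h) was -0.438 for Clu (adjusted p = 1.97e-05) and -1.65 for Cpn1 (adjusted p = 0.0118). It was -0.525 for Itgb2 (adjusted p = 0.0212) and -0.420 for Susd4 (adjusted p = 2.82e-05). Neither these differences nor those of the inhibitor effect were refitted with 1 TWEAK sample of 24 h kept, although the islet signal varied among those samples.

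Outside the tested genes, Hc, which encodes C5, the component that starts the terminal pathway, was at 0.362 CPM on average with TWEAK at 24 h (SD 0.158). It had 12, 16 and 9 reads there, against 1, 0 and 0 in vehicle at 24 h, 6, 1 and 7 in the inhibitor group of 24 h, and 0 to 4 at 6 h. Hc missed the read filter. When all genes with reads were fitted, the TWEAK effect at 24 h passed (adjusted p = 0.000189 in edgeR). Hc was picked because its TWEAK samples lay above those of vehicle, so a test of the same contrast adds no support.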

How the results depend on the processing

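No call of a member or a further gene changed sign under any alternative run, and C3 kept its calls and non-calls under each of them. For single further genes, the alternatives covered TWEAK against vehicle and NIK SMI1 against TWEAK at each time. Their differences between the times were not rerun. Counts of calls that moved by more than 1.5 times were as follows. With library totals, 1 member (Cd55) rose with NIK SMI1 at 24 h in place of 0, and vehicle at 24 h against 6 h gave 3710 genes up and 1260 down. In DESeq2, 1 further complement gene rose with NIK SMI1 at 24 h. Without the filter (26210 genes), further genes gave 2 down with TWEAK at 6 h, 2 up with TWEAK at 24 h, and 1 up and 1 down with NIK SMI1 at 24 h, and 773 genes had a more positive inhibitor effect at 24 h than at 6 h. With each time point alone, 0 further genes rose with NIK SMI1 at 6 h and 1 at 24 h, and 1 member rose at 24 h. With TWEAK sample 2 of 24 h alone, 1 further gene rose with NIK SMI1, and 800 genes rose and 632 fell. With TWEAK sample 1 alone, 0 members fell, 0 further genes rose and 3 fell, and 1783 genes rose and 1913 fell with TWEAK. The cause of these moves was not tested, beyond the smaller number of samples or the other genes tested.

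Leaving out each sample in turn gave 0 to 1 members down with TWEAK at 24 h, 2 to 3 up with TWEAK at 24 h, 0 to 1 up with NIK SMI1 at 24 h, 0 to 1 up with the inhibitor against vehicle at 24 h and 1 to 2 down in vehicle at 24 h against 6 h. For further genes the ranges were 1 to 2 down with TWEAK at 6 h, 0 to 1 up and 4 to 7 down with TWEAK at 24 h, 0 to 2 up with NIK SMI1 at 6 h and 1 to 2 up at 24 h. Over all genes they were 622 to 1146 down with the inhibitor against vehicle at 6 h, 489 to 914 up with NIK SMI1 at 6 h, and 128 to 367 down and 260 to 719 up for the difference of the inhibitor effect between the times.

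No paired analysis was possible because the labels give no replicate numbers. An exact permutation test of 3 against 3 samples cannot go below p = 0.1, so single values were tested in the fit across all genes. Depth limits C2, C4b, C1ra and Serping1, whose levels did not exceed 9 reads in any sample, and Cfi, at 1 to 21 reads.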
